A study of Mus musculus with 18 samples.

Results

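The genes described here are those whose response to CT-179 differed between a long and a short exposure. CT-179 is a small molecule made to inhibit OLIG2, a basic helix-loop-helix transcription factor. It was given to PTCP53 304 cells, a line of mouse Sonic hedgehog (SHH) medulloblastoma. Every library carries the genotype Ptch1+/-; Trp53-/-, so the vehicle cells lack p53 just as the treated cells do, and all libraries come from 1 line. The comparison used 12 of the 18 libraries of the series, in 4 groups of 3: vehicle at 24 h (culture day 1), CT-179 at 24 h, vehicle at 144 h (culture day 6) and CT-179 at 144 h. The other 6 libraries are of brain and do not enter it. For each gene the effect of CT-179 is the mean log2(FPKM + 1) with drug minus that with vehicle at the same time, where FPKM is fragments per kilobase of gene, scaled by library depth. The quantity reported is the effect at 144 h minus the effect at 24 h. It was tested in the 12510 genes that reached 1 FPKM in 3 or more of the 12 libraries.

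SHH signalling begins when the ligand binds PTCH1 and thereby frees SMO, which lets the GLI transcription factors switch on targets such as Gli1, Ptch1 and Ccnd2. OLIG2 marks stem-like and oligodendrocyte precursor-like cells in this tumour type, and in normal brain it drives precursors into the oligodendrocyte lineage, where GPR17 marks cells committed to differentiate. Basic helix-loop-helix factors of this family bind short DNA motifs called E-boxes. Sterol and fatty acid enzymes are switched on together by the SREBP factors, which sense cholesterol in the membrane, and the matrix genes described below encode the laminins, fibrillins and collagens that cells secrete around themselves.

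The implied depth was 2.84e+07 to 6.83e+07 reads per library. Of 15 SHH medulloblastoma markers 12 reached 1 FPKM in at least 1 library, among them Zic1, Sox2 and Ptch1, whereas the granule cell lineage factors Atoh1 and Barhl1 never exceeded 0.0254 and 0.0115 FPKM. Of 13 microglial markers only Cd68 reached 1 FPKM and 4 were at 0 in every library. Pecam1, Cldn5 and Cdh5, which define endothelium, stayed at or below 0.0952 FPKM. The mural members of the same list of 12 endothelial and mural markers were higher at the later time, with means over the libraries of 24 h and of 144 h of 0.492 and 2.80 FPKM for Pdgfrb and 0.192 and 4.06 FPKM for Kcnj8. The summed level of the 12 markers was 0.85 to 1.18 FPKM at 24 h, 7.94 to 8.18 in vehicle at 144 h and 7.35 to 7.77 in CT-179 at 144 h, and its part in the results was not tested. Of 11 fibroblast and meningeal markers 9 reached 1 FPKM, with a summed level of 43.5 to 46.8 FPKM in the libraries of 24 h, 74.4 to 77.5 in vehicle at 144 h and 76.9 to 83.5 in CT-179 at 144 h. The largest rises of that list were those of Thy1 (means of 14.9 FPKM at 24 h and 43.2 at 144 h) and Pdgfra (6.44 and 19.4). Col3a1 (13.6 and 3.45) and Slc6a13 (3.03 and 0.0475) fell, and Col1a1 (3.9 and 3.77) changed little. The sum is therefore no clear measure of fibroblasts. In such bulk samples, fewer cells of a type cannot be told apart from less RNA of a gene per cell.

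One library stood apart from its group, and the choice to leave it out was made with earlier results of these data known. CT-179 replicate 2 at 144 h correlated at 0.941 and 0.943 with the other libraries of its group, where all other pairs within a group lay at 0.996 to 0.998, and its FPKM values summed to 425478 against 308014 to 348964 in the others. With all 12 libraries limma called 0 of 12510 genes (0%) for the difference between the times at an adjusted p under 0.05, with 574 genes at an unadjusted p under 0.05 and a smallest adjusted p of 0.054. Without that library the same test called 329 genes (2.63%), 149 with a higher effect at 144 h (1.19%) and 180 with a lower one (1.44%). Of the 329, 272 had the same sign with 12 libraries and 57 the opposite sign. Values below come from the 11-library fit unless 12 libraries are named. Library values are given in the order of replicates 1, 2 and 3, so that the middle value of CT-179 at 144 h is always the library that stood apart.

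Most of the genes with a time-dependent effect changed late. Of the 329, 190 passed the test of the drug effect at 144 h and not at 24 h, of which 118 fell and 72 rose. Another 45 passed at 24 h and not at 144 h, 36 passed at both times in opposite directions, and 58 passed at both times in the same direction. Of those 58 the effect was larger at 144 h in 41 and smaller in 17. The differences were modest, with a median size of 0.32 on the log2(FPKM + 1) scale and a range of 0.15 to 1.63. The counts and the excess of lower effects depended on the pseudocount. With 0.1 in place of 1, 223 genes were called, 118 higher and 105 lower, and 118 passed at 144 h alone. Across all genes CT-179 called 1008 genes higher (8.06%) and 1752 lower (14.0%) at 24 h, and 1466 higher (11.7%) and 2101 lower (16.8%) at 144 h. Both effects fell with the exonic length of the gene, with Spearman's rho of -0.52 at 24 h and -0.44 at 144 h across 11020 protein-coding genes, whereas the difference between them had a rho of -0.03 without the library that stood apart and -0.64 with it. These genes are not independent replicates and share their libraries.

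**Figure D1:**
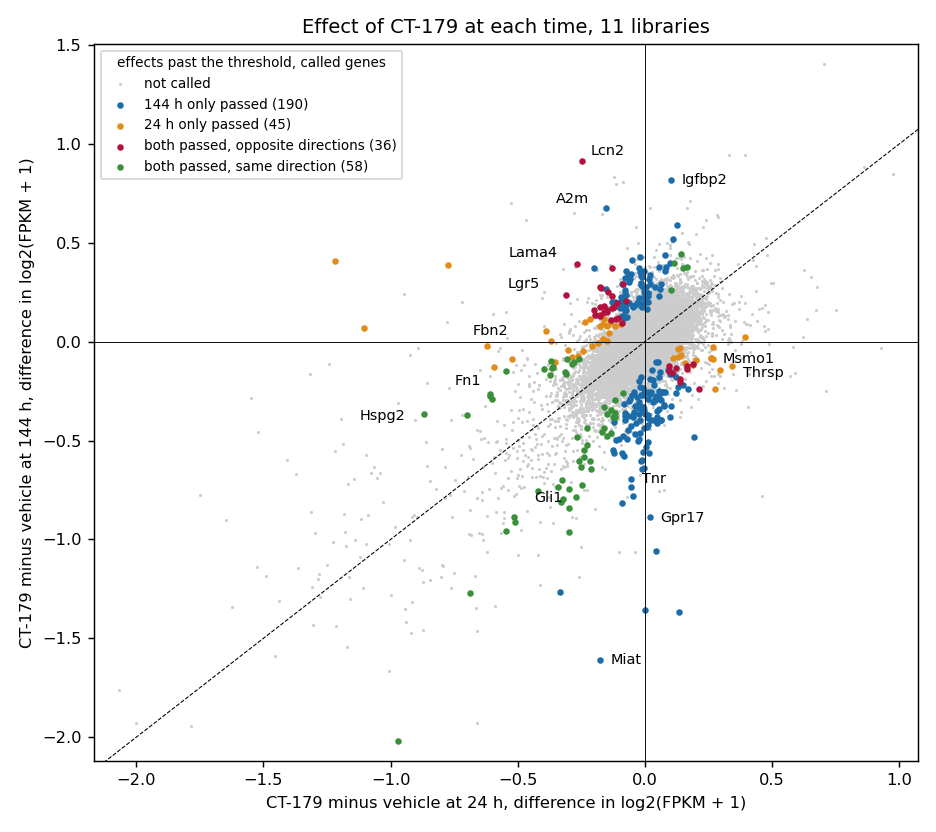
Effect of CT-179 on each of 12510 genes at 24 h (x axis) and at 144 h (y axis), both as differences in log2(FPKM + 1) in the 11-library fit. Grey points were not called for the difference between times; coloured points were, with their number by pattern in the legend (190, 45, 36 and 58), and the dashed line marks equal effects. The blue cloud of genes that passed at 144 h alone lies along the vertical axis, from Miat at the bottom to Igfbp2 near the top.

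The largest late falls included those of Gpr17, Tnr and Cntn1, which are members of the oligodendrocyte precursor list. Gpr17, a receptor of precursors about to differentiate, was almost silent at 24 h, with 0.217, 0.226 and 0.242 FPKM in vehicle and 0.209, 0.254 and 0.270 in CT-179. At 144 h it stood at 51.5, 50.8 and 45.7 FPKM in vehicle and at 27.7, 20.8 and 24.9 in CT-179. The groups overlapped at 24 h and were fully apart at 144 h, each CT-179 library lying below each vehicle library. The effect was 0.02 at 24 h and -0.88 at 144 h, a difference of -0.90 (SE 0.08, limma adjusted p = 0.00074), and with 12 libraries it was -1.01 (adjusted p = 0.094). Gpr17 was far higher at 144 h than at 24 h in every library, with or without the drug.

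Tnr, which encodes the perineuronal matrix protein tenascin-R made by this lineage, stood at 1.17, 1.11 and 1.05 FPKM in vehicle and 1.03, 1.01 and 1.04 in CT-179 at 24 h. At 144 h it stood at 5.36, 5.51 and 5.0 FPKM in vehicle and at 2.92, 0.684 and 2.65 in CT-179. The groups separated widely at the later time only, and the difference between effects was -0.68 (SE 0.07, limma adjusted p = 0.0022; -1.07 with 12 libraries). Cntn1, an axon-glia adhesion molecule, differed by -0.47 (adjusted p = 0.0022), with 35.4, 36.3 and 35.0 FPKM in vehicle and 25.7, 16.3 and 24.0 in CT-179 at 144 h and overlapping groups near 21 FPKM at 24 h. Lims2 differed by -0.34 (adjusted p = 0.032). It shares 188 exonic bases with Gpr17 on the opposite strand, and the strand of counting is not given in the sources used here, so reads there cannot be assigned to one or the other.

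In all, 4 of 16 measured genes of the precursor list had a lower effect at 144 h and 0 a higher one, with a list median of -0.05 beside 0.01 for all genes tested. Of the 16 differences 6 were positive and 10 negative. Other members did not pass. Pdgfra and Cspg4, which mark early precursors, had differences of 0.01 (adjusted p = 0.93) and 0.02 (adjusted p = 0.95), and the proteoglycan gene Bcan one of -0.02 (adjusted p = 0.90). The 4 became 3 without any one of 8 libraries, and Lims2 lost its call in each of these. Gpr17, Tnr and Cntn1 kept theirs with each library left out in turn.

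Some genes of young neurons also fell late, while other members of their list did not. Dcx, a microtubule protein of migrating neurons, stood at 0.241, 0.299 and 0.287 FPKM in vehicle and 0.215, 0.198 and 0.289 in CT-179 at 24 h. At 144 h the values were 4.54, 4.83 and 4.80 FPKM in vehicle and 2.58, 1.34 and 2.11 in CT-179, with the groups clearly apart. The difference between effects was -0.73 (SE 0.09, limma adjusted p = 0.0041), and -0.90 with 12 libraries. Since Dcx was near 0 at 24 h, the pseudocount of 1 damps its early effect: with a pseudocount of 0.1 the difference was -0.81 and did not pass (adjusted p = 0.064).

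Of 18 measured pan-neuronal genes 5 had a lower effect at 144 h and 0 a higher one, with a list median of -0.04. Beside Dcx these were Gap43, a growth cone protein (-0.46), Snap91, a clathrin adaptor of synapses (-0.42), the RNA-binding protein gene Elavl3 (-0.37) and the neuronal tubulin gene Tubb3 (-0.34). Their calls were less stable than that of Dcx, and the count of 5 was 1 to 3 in 10 of the 11 omissions of 1 library (1 without CT-179 replicate 1 or replicate 3 at 144 h, and 6 without vehicle replicate 3 at 24 h). With 12 libraries the differences of Gap43, Elavl3 and Tubb3 were -0.14, -0.19 and -0.10. Map2, Syn1 and Syt1 had differences of 0.02, 0.02 and 0.16 and did not pass. In this list 2 genes rose and 1 fell at 24 h (8.06% and 14.0% of all genes). At 144 h 4 rose and 7 fell (11.7% and 16.8% of all genes). Of its 18 differences 7 were positive and 11 negative. Gria2, a glutamate receptor subunit, fell at both times and by more at 144 h: 6.89, 7.47 and 7.11 FPKM in vehicle against 5.68, 5.89 and 5.32 in CT-179 at 24 h, and 9.31, 9.49 and 9.19 against 5.24, 3.02 and 4.32 at 144 h. Its groups did not overlap at either time, and the effects of -0.30 and -0.84 differed by -0.54 (limma adjusted p = 0.0096).

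The astrocyte list gave 4 lower and 0 higher of 19 measured, with a median of -0.09. Gja1, the gap junction protein of astrocytes, lay at 7.55 to 7.70 FPKM in vehicle and 7.55 to 7.81 in CT-179 at 24 h, and at 10.6, 10.5 and 9.95 in vehicle against 8.0, 6.11 and 7.39 in CT-179 at 144 h. It differed by -0.40 (limma adjusted p = 0.0054), and Acsl6, an acyl-CoA synthetase, by -0.31 (adjusted p = 0.0058). S100b and Sparcl1 differed by -0.43 and -0.26. Without CT-179 replicate 3 at 144 h both lost their calls (adjusted p = 0.14 and 0.15), as they did in 8 and 9 of all 11 omissions of 1 library. S100b stood at 25.7 FPKM in the library that stood apart, above its 3 vehicle libraries at 14.7 to 15.1, and its difference with 12 libraries was -0.05.

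Miat, a long noncoding RNA of the nervous system, had the largest difference of any gene named here at the pseudocount of 1. It stood at 0.240, 0.233 and 0.232 FPKM in vehicle and 0.105, 0.0865 and 0.0871 in CT-179 at 24 h, then at 27.8, 30.3 and 28.9 in vehicle and 11.3, 3.42 and 6.83 in CT-179 at 144 h. Every CT-179 library lay below every vehicle library at both times. The effect moved from -0.18 to -1.61, a difference of -1.44 (SE 0.18, limma adjusted p = 0.0041), and with a pseudocount of 0.1 it was -0.91 (adjusted p = 0.062). The early values also lie below vehicle, so the size of the difference depends on the pseudocount. So does its rank: with 0.1 Gpr17 had -0.97 and Lcn2, described below, 1.42. Of the exonic bases of Miat 24.3% lie under an opposite-strand gene model.

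Further late falls fell to single genes of varied function. Flt3l, which encodes a cytokine of blood cell progenitors, differed by -0.73, the glutamate transporter gene Slc1a1 by -0.64, Mybpc1, which encodes a myosin-binding protein, by -0.63, and the lipoprotein lipase gene Lpl by -0.52. Tub and Vxn differed by -0.47 and -0.48, and the collagen prolyl hydroxylase gene P4ha2 by -0.50. Opposite-strand gene models cover 31.9% of the exonic bases of Slc1a1, 13.9% of those of Vxn and 12.6% of those of Tub. A same-strand model covers 22.1% of those of Flt3l. Lpl stood at 23.8 FPKM in the library that stood apart, above vehicle at 20.6 to 21.4, and its difference with 12 libraries was -0.29. Flt3l, Slc1a1, Mybpc1 and P4ha2 had vehicle means under 1 FPKM at 24 h, and with a pseudocount of 0.1 none of these 4 passed. Slc1a1 and P4ha2 also lost their calls without CT-179 replicate 3 at 144 h (adjusted p = 0.07 and 0.14), and P4ha2 in 9 of the 11 such omissions. In all, 56 of the 329 genes had a vehicle mean under 1 FPKM at 24 h and 8 at 144 h.

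**Figure D2:**
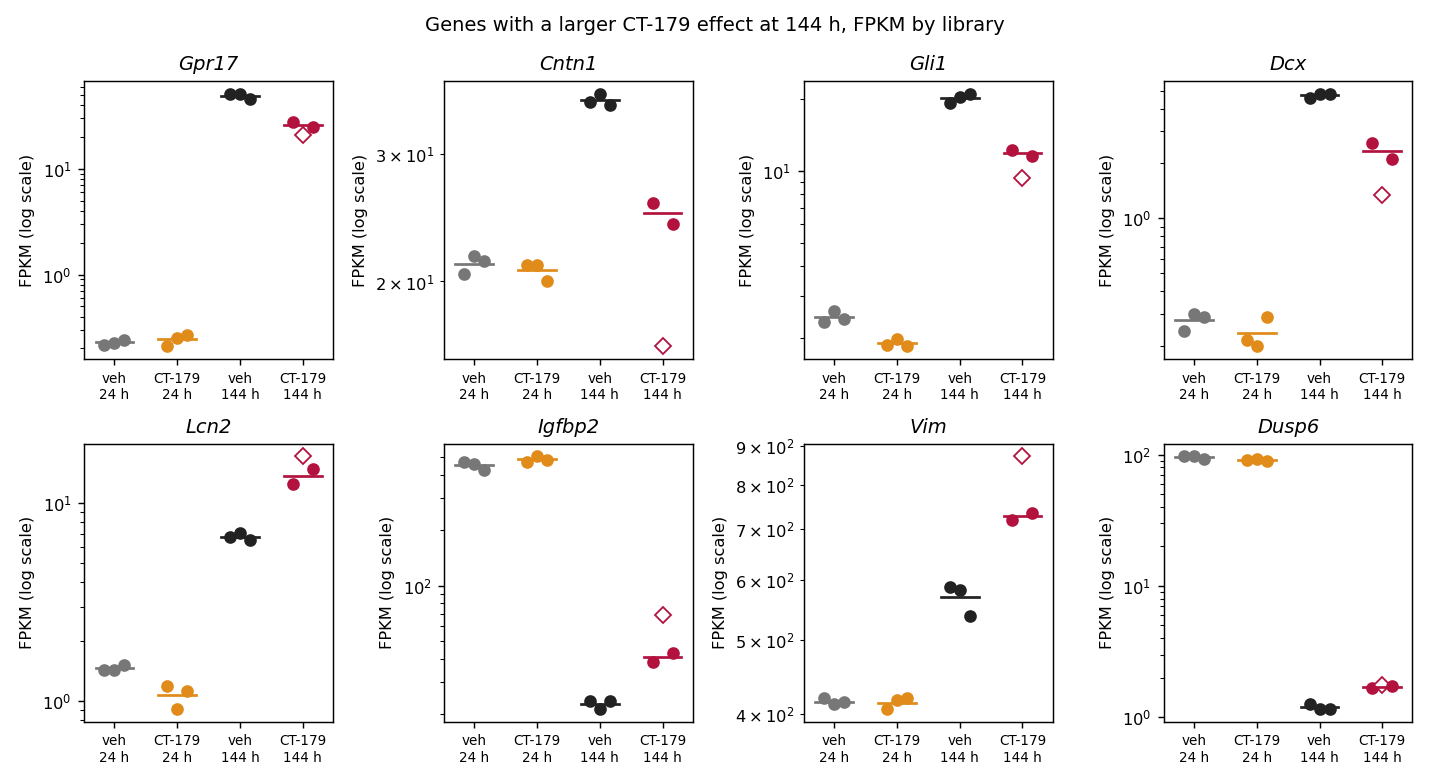
FPKM (log scale) in each library for 4 genes with a lower and 4 with a higher CT-179 effect at 144 h than at 24 h; filled points are libraries, bars their means, and the open diamond is CT-179 replicate 2 at 144 h, which is left out of the mean. The treated libraries of Gpr17, Cntn1, Gli1 and Dcx lie below vehicle at 144 h and those of Lcn2, Igfbp2, Vim and Dusp6 above it, the diamonds included.

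Among the late rises, Lcn2, an iron-carrier protein secreted in inflammation, turned direction between the times (ENSMUSG00000026822.14, mm10 chromosome 2, 32384633 to 32388252). It stood at 1.44, 1.43 and 1.52 FPKM in vehicle and 1.19, 0.909 and 1.13 in CT-179 at 24 h, and at 6.76, 7.05 and 6.50 in vehicle and 12.5, 17.2 and 14.9 in CT-179 at 144 h. The CT-179 libraries were all below vehicle at 24 h and all above it at 144 h. The effects of -0.25 and 0.92 differed by 1.16 (SE 0.10, limma adjusted p = 0.00074). With 12 libraries the difference was 1.27, and its adjusted p of 0.054 was the smallest of all genes.

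Igfbp2, which binds insulin-like growth factors outside the cell, was abundant and overlapping at 24 h, at 474, 462 and 426 FPKM in vehicle and 472, 507 and 484 in CT-179. At 144 h it had dropped to 23.4, 21.2 and 23.4 FPKM in vehicle and to 38.5, 69.2 and 42.9 in CT-179. All treated libraries lay above all vehicle libraries at the later time, and the difference between effects was 0.71 (SE 0.08, limma adjusted p = 0.0027; 0.96 with 12 libraries). A2m, the protease inhibitor alpha-2-macroglobulin, differed by 0.83 (adjusted p = 0.0043), with 3.27, 3.43 and 2.80 FPKM in vehicle and 5.44, 2.15 and 5.85 in CT-179 at 144 h. Here the library that stood apart lay below all vehicle libraries while the other 2 lay above them.

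Of 17 measured genes of acute phase response and reactive glia 3 had a higher effect at 144 h and 0 a lower one, with a median of 0.25 beside 0.01 for all genes. They were Lcn2, Cebpd (0.45), a transcription factor induced in inflammation, and Cp (0.41), the ferroxidase ceruloplasmin. Cebpd moved from 5.65, 5.83 and 5.70 FPKM in vehicle to 7.69, 14.2 and 8.45 in CT-179 at 144 h, without overlap. At 24 h it had overlapped, at 2.36, 2.43 and 2.03 against 2.10, 2.43 and 2.15. Cp stood at 26.5, 26.6 and 27.3 FPKM in vehicle and 32.3, 12.8 and 36.0 in CT-179 at 144 h, so its direction depends on whether that library is kept, and with 12 libraries its difference was -0.04. In this list 11 genes rose at 144 h and 0 at 24 h (11.7% and 8.06% of all genes). The members Serpina3n, Socs3 and C3 had differences of 0.32, 0.32 and 0.39, which did not pass (adjusted p = 0.097, 0.13 and 0.081), and Stat3 one of 0.04. Cebpd shares 15.0% of its exonic bases with Spidr on the opposite strand. Without CT-179 replicate 3 at 144 h Lcn2 alone of the 3 was called, with 0.39 (adjusted p = 0.14) for Cebpd and 0.33 (adjusted p = 0.054) for Cp. Cebpd lost its call in 7 of the 11 omissions of 1 library.

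The intermediate filament genes of neural stem cells were the called members of that list, 2 higher and 0 lower of 19 measured, with a list median of 0.09. Vim, the vimentin gene, overlapped between the groups at 24 h, at 419, 412 and 414 FPKM in vehicle and 406, 417 and 419 in CT-179. At 144 h it stood at 587, 582 and 538 FPKM in vehicle and 721, 873 and 734 in CT-179, with no overlap, and its difference was 0.36 (SE 0.05, limma adjusted p = 0.0058). Nes, the nestin gene, differed by 0.34 (adjusted p = 0.012) through another course: it fell at 24 h, from 165, 158 and 171 to 143, 138 and 138 FPKM, and did not pass at 144 h, at 27.6, 29.2 and 28.1 against 29.4, 26.7 and 31.5. Without CT-179 replicate 3 at 144 h the value for Nes was 0.29 (adjusted p = 0.081).

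Of 18 measured genes induced by MAP kinase signalling, among them genes that dampen it, 4 had a higher effect at 144 h and 0 a lower one. The median was 0.18. Dusp6, the phosphatase that inactivates ERK, lay at 96.8, 96.8 and 92.7 FPKM in vehicle and 91.6, 92.7 and 89.8 in CT-179 at 24 h, and at 1.26, 1.15 and 1.16 in vehicle and 1.68, 1.77 and 1.72 in CT-179 at 144 h. The level had collapsed by 144 h in all libraries, and there each treated library lay above each vehicle library. The difference was 0.37 (SE 0.04, limma adjusted p = 0.0041; 0.38 with 12 libraries). Spry2, a receptor pathway inhibitor, differed by 0.28, the ETS factor gene Etv5 by 0.30 and Spred2 by 0.23. With 12 libraries Spry2 had 0.24, Etv5 0.07 and Spred2 -0.13, and the list median was 0.02, with 9 of the 18 positive. The count of 4 was 2 without CT-179 replicate 3 at 144 h, where Etv5 (adjusted p = 0.099) and Spred2 (adjusted p = 0.089) did not pass, and Etv5 lost its call in 4 of the 11 omissions of 1 library. The related genes Spry1, Spry4, Dusp4 and Etv4 had differences of 0.14, 0.22, 0.14 and 0.21 and did not pass. Of 14 immediate early genes, Egr1 and Junb were higher by 0.45 and 0.46 and 0 were lower, and without that same library neither passed (0.39, adjusted p = 0.10, and 0.38, adjusted p = 0.22). Junb lost its call in 9 of the 11 omissions.

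Genes of sterol synthesis rose at 24 h in part, and none rose at 144 h. Of 25 measured genes of cholesterol synthesis and uptake, 13 rose and 0 fell at 24 h (8.06% and 14.0% of all genes). At 144 h 0 rose and 3 fell (11.7% and 16.8% of all genes). The median effect was 0.13 at 24 h and -0.07 at 144 h. For the difference between the times 6 were called lower and 0 higher. A negative value was found in 23 of the 25, beside 6003 of all 12510 genes tested. The list median was -0.20 (-0.23 with 12 libraries). The promoter windows of 2 of these enzymes are given, the first because it holds the classic sterol response motif and the second because its gene had the smallest p in the list. They run 5′ to 3′ from 250 bases before to 50 bases after the RefSeq start (GRCm38.p6), with motif matches in capitals: TCACNCCAC, the sterol response element, in Hmgcs1 (chr13:119690101-119690400, plus strand), and CAGCTG, an E-box, in Msmo1 (chr8:64733529-64733828, minus strand).
Hmgcs1: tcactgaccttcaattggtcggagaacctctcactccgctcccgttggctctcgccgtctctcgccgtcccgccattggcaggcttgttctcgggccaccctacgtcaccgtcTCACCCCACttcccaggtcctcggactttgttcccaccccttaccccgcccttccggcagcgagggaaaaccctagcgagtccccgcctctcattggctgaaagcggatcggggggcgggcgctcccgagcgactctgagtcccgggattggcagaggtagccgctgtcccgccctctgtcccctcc
Msmo1: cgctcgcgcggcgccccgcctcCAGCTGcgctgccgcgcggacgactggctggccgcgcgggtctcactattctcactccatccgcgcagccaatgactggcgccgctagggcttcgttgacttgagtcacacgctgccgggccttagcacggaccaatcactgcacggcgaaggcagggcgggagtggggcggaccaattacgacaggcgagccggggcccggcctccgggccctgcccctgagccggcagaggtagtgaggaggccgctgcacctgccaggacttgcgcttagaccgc

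Hmgcs1, which makes the precursor of mevalonate, stood at 87.2, 93.7 and 96.8 FPKM in vehicle and 105, 108 and 104 in CT-179 at 24 h. At 144 h, when the culture as a whole had raised it, the values were 443, 454 and 484 in vehicle and 424, 377 and 425 in CT-179. The treated libraries were all above vehicle at 24 h and all below it at 144 h, though the later effect of -0.12 did not pass, and the difference was -0.31 (SE 0.06, limma adjusted p = 0.028). Msmo1, a sterol methyl oxidase, stood at 41.8, 44.8 and 42.9 FPKM in vehicle and 52.6, 52.4 and 50.7 in CT-179 at 24 h, and at 71.4, 73.1 and 72.8 in vehicle and 67.7, 107 and 68.9 in CT-179 at 144 h. Its difference was -0.34 (SE 0.04, adjusted p = 0.0041), and -0.13 with the library that stood apart, whose value lay above vehicle. Mvd, mevalonate diphosphate decarboxylase, differed by -0.35, the lanosterol synthase gene Lss by -0.29 and Dhcr7, the last reductase of the pathway, by -0.17. Mvd too lay above vehicle in the library that stood apart, at 91.5 FPKM against 60.5 to 64.0, and with 12 libraries its difference was -0.14.

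Sqle, the squalene epoxidase gene, had a difference of -0.18 that did not pass (limma adjusted p = 0.079). The count of 6 rested on single libraries: it was 1 without CT-179 replicate 3 at 144 h (Msmo1 alone kept its call in every such omission), 2 without any one of 6 others, and 14 without vehicle replicate 3 at 24 h, while the list median stayed between -0.23 and -0.16. Of the 20 promoters that RefSeq gave for 17 of these genes, TCACNCCAC was found, on either strand, in 1 (5.0%), that of Hmgcs1, and in 1.12% of the 12018 promoters of all tested genes. CAGCTG, which reads the same on both strands, was found in 15.0% (3 of 20) of the sterol gene promoters and 14.94% of all. It was found in 19.08% of the 131 promoters of genes called higher and in 21.86% of the 183 of genes called lower. CATATG, another E-box that reads the same on both strands, was found in 2 of the 20 sterol gene promoters and 1.58% of all, and in 1.53% and 1.64% of those of genes called higher and lower. These matches are descriptions of the windows only.

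Fatty acid synthesis genes were also mostly higher at 24 h. Of 16 measured, 9 rose and 3 fell at 24 h (8.06% and 14.0% of all genes). At 144 h 0 rose and 5 fell (11.7% and 16.8% of all genes). For the difference 5 were called lower and 0 higher, with a median of -0.13 (-0.29 with 12 libraries). Thrsp, a small nuclear protein that promotes lipogenesis, stood at 1.2, 1.08 and 0.915 FPKM in vehicle and 1.59, 1.71 and 1.56 in CT-179 at 24 h, and at 19.1, 19.4 and 18.2 against 17.6, 31.7 and 16.9 at 144 h. The groups were apart at 24 h, and at 144 h the library that stood apart lay above vehicle and the other 2 below, with a difference of -0.47 (limma adjusted p = 0.013). The desaturase genes Fads1, Scd1 and Fads2 differed by -0.24, -0.31 and -0.20, and Acss2, which makes acetyl-CoA from acetate, by -0.21. Fads1 fell at 144 h and rose at 24 h and kept its call with each library left out. Without CT-179 replicate 3 at 144 h it was the only one of the 5 called, and without vehicle replicate 3 at 24 h 8 genes of the list were. In 9 of the 11 omissions the count was lower by over 1.5 times. Fasn and Acaca, the core synthase and carboxylase, had -0.05 and 0.00 and did not pass.

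In the matrix list the called differences were mostly of the other sign. Of 34 measured, 1 rose and 15 fell at 24 h (8.06% and 14.0% of all genes). At 144 h 7 rose and 10 fell (11.7% and 16.8% of all genes). For the difference between times 11 were higher and 1, Sparc, lower (-0.22), with a median of 0.17. A positive value was found in 30 of the 34, beside 6507 of all 12510 genes tested. Fbn2, a fibrillin, stood at 9.03, 9.57 and 9.44 FPKM in vehicle and 5.87, 5.54 and 5.79 in CT-179 at 24 h, and at 1.06, 1.07 and 1.06 against 1.03, 0.386 and 1.03 at 144 h. The gap seen at 24 h was nearly gone in 2 of the 3 later libraries, and the effects of -0.62 and -0.02 differed by 0.60 (SE 0.06, limma adjusted p = 0.001; 0.41 with 12 libraries). At its low later level the pseudocount narrows differences.

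Hspg2, the basement membrane proteoglycan perlecan, fell at both times, from 12.9, 12.6 and 11.8 to 6.70, 6.48 and 5.86 FPKM at 24 h and from 8.16, 8.74 and 8.06 to 6.38, 1.43 and 6.07 at 144 h. No libraries overlapped at either time, and the difference was 0.50 (SE 0.08, limma adjusted p = 0.008). Fn1, fibronectin, passed at 24 h alone, with a fall from 18.2, 19.4 and 17.8 to 12.5, 11.3 and 12.0 FPKM. It differed by 0.46 (adjusted p = 0.0096). At 144 h Fn1 stood at 22.1, 24.0 and 21.3 FPKM in vehicle and 20.3, 5.68 and 20.6 in CT-179. Each treated library lay below each vehicle library there too, though the effect of -0.13 did not pass (limma adjusted p = 0.099). The laminin gene Lama4 turned around: 21.0, 20.8 and 20.7 FPKM in vehicle against 17.2, 16.9 and 17.4 in CT-179 at 24 h, then 3.96, 4.67 and 4.18 against 5.68, 2.01 and 6.16 at 144 h, a difference of 0.66 (SE 0.07, adjusted p = 0.0021). Lamb1, its partner chain, did the same (0.33, adjusted p = 0.0058).

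The fibrillar collagen genes Col3a1 and Col5a2 passed at 144 h alone, with effects of 0.35 and 0.33, and Timp2, an inhibitor of matrix proteases, likewise with 0.22. Col5a1, Fbn1 and Lamc1 differed by 0.26, 0.33 and 0.18. In all 11 matrix genes called higher the library that stood apart lay below the other treated libraries of 144 h, and 12 libraries gave -0.02 for Hspg2, -0.10 for Fn1, 0.01 for Lamb1, -0.27 for Lamc1 and 0.26 for Lama4, with a list median of -0.06. The direction of the list therefore rests on leaving that library out. Without CT-179 replicate 3 at 144 h as well, 6 were called, and Fn1 had 0.45 (adjusted p = 0.061). After a correction for gene length 8 were higher and 1 lower. The fibroblast marker sum given above is higher at 144 h than at 24 h in vehicle and treated libraries alike, mainly through Thy1 and Pdgfra. Col3a1, which is in both lists, was lower at 144 h. The part of such cells in these values was not tested.

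**Figure D3:**
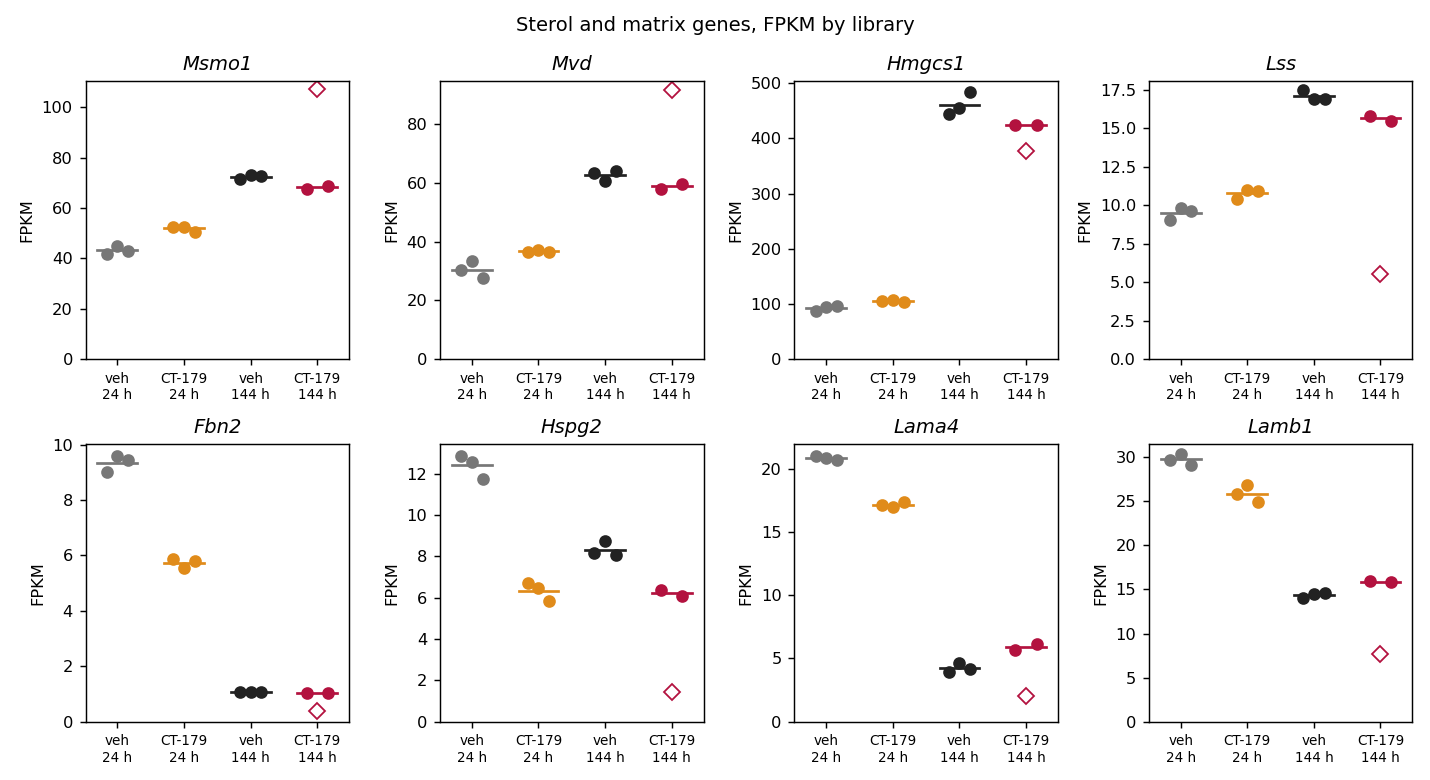
FPKM by library (linear axes) for 4 sterol genes (upper row) and 4 matrix genes (lower row); filled points are libraries, bars their means without the library that stood apart, which is the open diamond. At 24 h CT-179 lies above vehicle in the sterol genes and below it in the matrix genes; at 144 h the diamond lies outside the range of the other treated libraries in every panel.

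Some genes of splicing control fell further at 144 h than at 24 h. The list of CLK kinases, L-type cyclins and SR-type splicing factors had 20 of 33 lower and 1 higher at 24 h, and 25 lower and 0 higher at 144 h. For the difference 10 were lower and 0 higher, with a median of -0.19 (-0.22 with 12 libraries) and 29 of 33 negative. Pnisr, an SR-related protein gene, stood at 6.75, 7.40 and 6.74 FPKM in vehicle and 4.55, 4.55 and 4.68 in CT-179 at 24 h, and at 10.8, 11 and 11 against 5.72, 3.62 and 4.99 at 144 h. The groups were apart at both times and the gap was wider at the later one, with effects of -0.51 and -0.91 and a difference of -0.40 (SE 0.07, limma adjusted p = 0.017; -0.55 with 12 libraries).

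Arglu1, a splicing and transcription cofactor, differed by -0.45 (adjusted p = 0.0078), and Rbm39, a splicing factor, by -0.26. Clk1, a kinase that phosphorylates SR proteins, went from an effect of -0.51 to one of -0.89 and differed by -0.37, and Ccnl2, which encodes an L-type cyclin, by -0.34. Clasrp differed by -0.41 and Luc7l3 by -0.27. Snrnp70, a U1 particle protein, differed by -0.23 through a fall at 144 h alone. There it stood at 94.8, 94.2 and 95.7 FPKM in vehicle and 83.1, 118 and 82.4 in CT-179. The library that stood apart thus lay above vehicle, and with 12 libraries the difference was -0.06. The count of 10 was 1, Snrnp70, without CT-179 replicate 3 at 144 h, 2 without vehicle replicate 3 at 144 h and 13 without vehicle replicate 3 at 24 h. It was lower by over 1.5 times in 8 of the 11 omissions. The core SR protein genes Srsf1, Srsf3 and Srsf4 had 0.06, 0.00 and 0.00 and did not pass. Outside the list Akap8, a nuclear anchoring protein gene, and Srrm1, a splicing coactivator gene, took the same course, with -0.31 and -0.26, and kept their calls with each library left out.

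**Figure D4:**
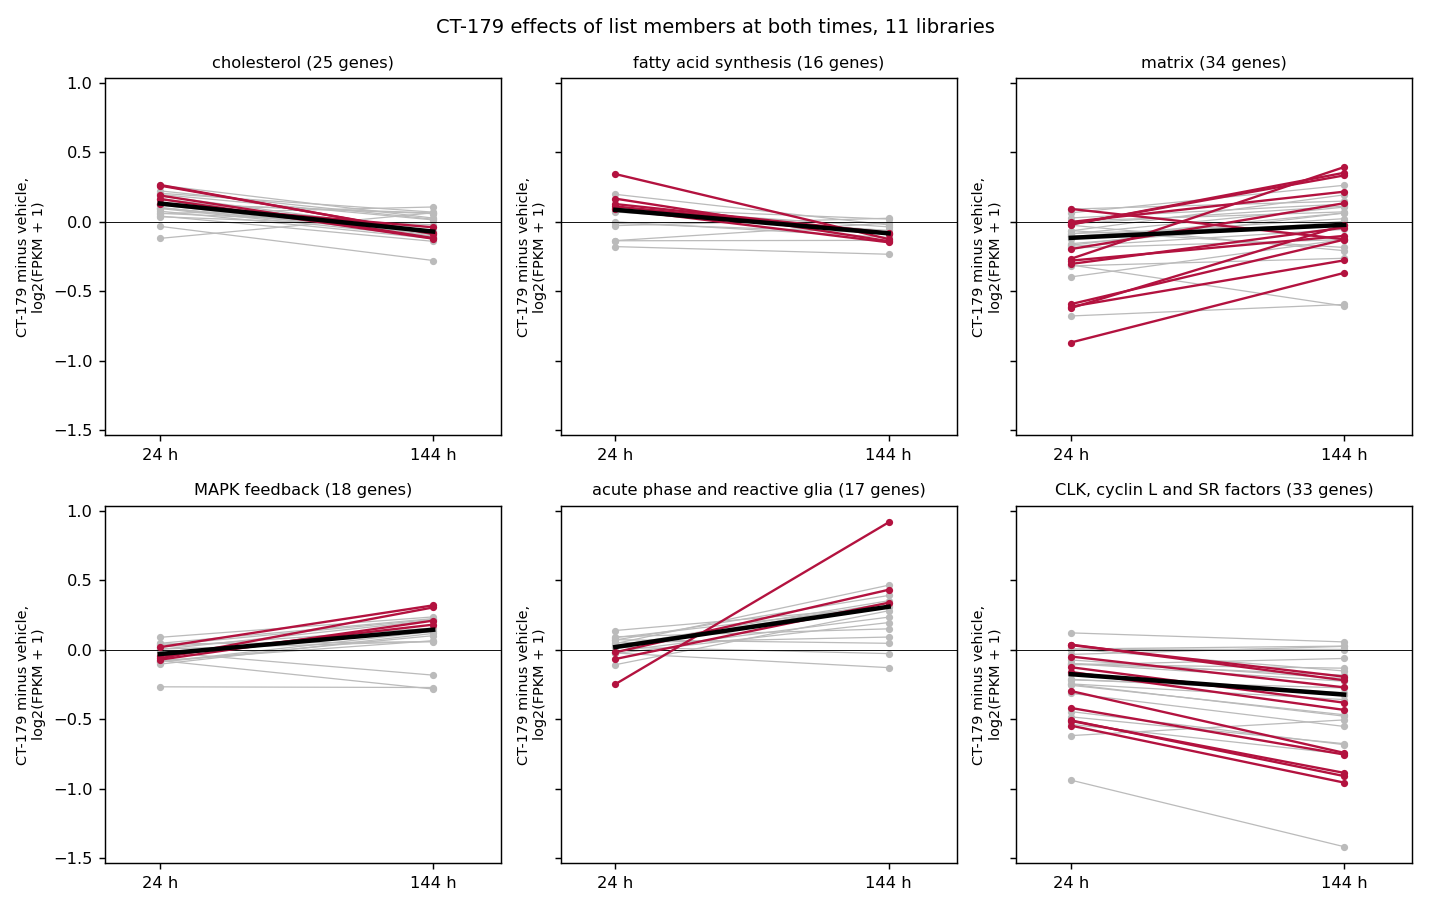
CT-179 effects, as differences in log2(FPKM + 1), at 24 h and 144 h for the measured members of 6 gene lists in the 11-library fit; each line is 1 gene, red lines are genes called for the difference between times and the black line is the list median. The medians go from 0.13 to -0.07 for cholesterol, from -0.12 to -0.02 for matrix and from -0.18 to -0.32 for the splicing list.

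The SHH pathway split. Gli1, effector and target of the pathway (ENSMUSG00000025407.7, mm10 chromosome 10, 127329882 to 127341974), stood at 2.34, 2.6 and 2.40 FPKM in vehicle and 1.88, 1.98 and 1.84 in CT-179 at 24 h, and at 19.4, 20.6 and 21.1 against 12.3, 9.38 and 11.5 at 144 h. All treated libraries lay below vehicle at both times, and by more at 144 h. The effects of -0.25 and -0.73 differed by -0.48 (SE 0.07, limma adjusted p = 0.0058), and by -0.58 with 12 libraries. At the low early level the pseudocount of 1 shrinks the first effect; with 0.1 the call was kept.

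Ptch1, the receptor and the usual second readout of GLI activity, had effects of -0.21 and -0.23, and a difference of -0.02 that did not pass (95% interval -0.20 to 0.16, limma adjusted p = 0.94). Hhip, a further target, had 0.05 and did not pass. Ccnd2, a cyclin that SHH induces in granule precursors, moved the opposite way to Gli1, at 146, 146 and 153 FPKM against 141, 136 and 141 at 24 h and at 13.7, 13.5 and 13.1 against 16.4, 9.94 and 16.9 at 144 h. It fell slightly at 24 h and rose at 144 h, where the library that stood apart lay below vehicle, with a difference of 0.38 (SE 0.04, limma adjusted p = 0.0027; 0.15 with 12 libraries). The repressor gene Gli3 and the co-receptor gene Gas1 were higher by 0.25 and 0.26, and Foxm1, a mitotic transcription factor, differed by -0.31. In all 3 of 19 measured genes were higher and 2 lower, and 3 in total (Gli1, Ccnd2 and Foxm1) without any one of 10 libraries.

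Proliferation genes gave few calls. Of 30 G2/M genes Foxm1 and Birc5 (-0.21), which encodes survivin, were lower and 0 higher, with a median of -0.13 and 25 of 30 negative. In this list 5 rose and 3 fell at 24 h (8.06% and 14.0% of all genes). At 144 h 1 rose and 12 fell (11.7% and 16.8% of all genes). Birc5 lost its call without any one of 10 libraries (adjusted p = 0.17 without CT-179 replicate 3 at 144 h). None of 33 G1/S and replication genes was called, with a median of -0.03. Mki67, a marker of cycling cells, fell at both times, from 63.4, 67.2 and 68.2 to 50.9, 47.3 and 50.7 FPKM at 24 h and from 3.99, 3.99 and 4.59 to 3.12, 1.42 and 3.19 at 144 h. The groups did not overlap at either time, and the effects of -0.41 and -0.32 differed by 0.09 (95% interval -0.07 to 0.25, limma adjusted p = 0.59). Cdkn1a, the cyclin-dependent kinase inhibitor p21, had a difference of -0.21 (adjusted p = 0.22).

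The transcripts of the OLIG genes showed no difference that passed. Olig2 stood at 395, 386 and 366 FPKM in vehicle and 389, 411 and 402 in CT-179 at 24 h, and at 206, 201 and 197 against 216, 180 and 213 at 144 h. The groups overlapped at both times, and the difference was 0.02 (95% interval -0.09 to 0.13, limma adjusted p = 0.88). Olig1, its neighbour, stood at 403, 396 and 391 FPKM in vehicle and 465, 625 and 444 in CT-179 at 144 h, where it rose by 0.20, and its difference was 0.12 (SE 0.08, adjusted p = 0.49). Sox10, a partner of OLIG2 in the lineage, did not reach the level for testing.

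Of the signalling receptors, Lgr5, a receptor of R-spondins in the WNT pathway, turned direction, at 5.09, 4.96 and 4.95 FPKM in vehicle against 4.01, 3.72 and 3.77 in CT-179 at 24 h and 3.90, 4.16 and 3.91 against 4.58, 2.16 and 5.18 at 144 h. The treated libraries were all below vehicle early and 2 of 3 above it late, and the difference was 0.55 (SE 0.07, limma adjusted p = 0.0041; 0.25 with 12 libraries). Shc3, an adaptor of neuronal receptor kinases, turned likewise (0.50, adjusted p = 0.0027), but stood at 0.715 FPKM in the library that stood apart against 5.16 and 5.41 in the other 2, and 12 libraries gave -0.12. The semaphorin co-receptor genes Nrp1 and Nrp2 were higher by 0.36 and 0.30, with 0.00 and -0.13 when that library was kept. The differences were 0.23 for Notch1 and 0.31 for Notch4, and 0.19 and 0.17 for the receptor kinase genes Igf1r and Erbb2. Notch1 fell at both times, with effects of -0.36 and -0.13, and Igf1r had -0.21 at 24 h and -0.02 at 144 h. Notch4 was low at 144 h, with group means of 0.268 FPKM in vehicle and 0.418 in CT-179. With 12 libraries the differences of Notch1 and Igf1r were -0.22 and -0.03. The calls of these receptor genes rested on single libraries: Notch1, Notch4 and Igf1r each lost theirs in 9 of the 11 omissions of 1 library and Erbb2 in 10.

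Several lists held no called gene, where 2.63% of all genes tested were called, so that lists of their size would hold at most about 1 at that share. None was called among 18 p53 targets, a programme whose factor these cells lack, 31 genes of the unfolded protein and integrated stress responses, 31 of hypoxia and glycolysis, 15 of heat shock, 15 of BMP signalling, 21 of interferon and STING signalling, 19 of the BCL2 family or 36 cytosolic ribosomal proteins. The ribosomal protein genes rose at both times, 33 of 36 at 24 h and 34 at 144 h, with a median difference of 0.05 without the library that stood apart and 0.40 with it. Lists without a call could still lean in sign. The difference was positive in 32 of the 36 ribosomal protein genes and in 27 of the 31 genes of hypoxia and glycolysis.

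**Figure D5:**
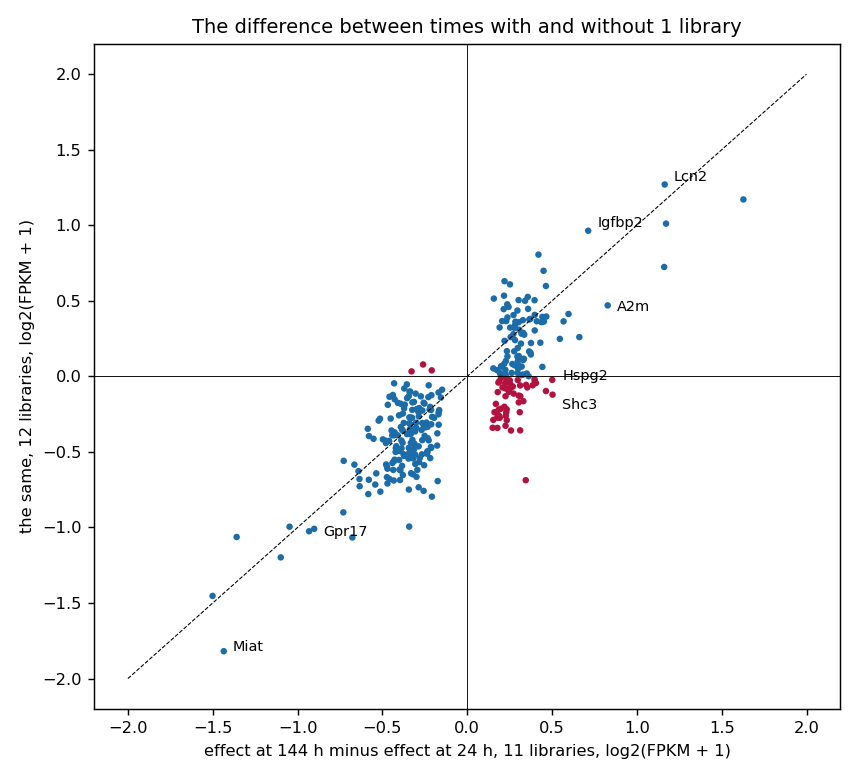
Difference between the CT-179 effects (144 h minus 24 h, in log2(FPKM + 1)) of the 329 called genes, without CT-179 replicate 2 at 144 h (x axis, 11 libraries) and with it (y axis, 12 libraries). Blue points are the 272 genes that kept their sign and red points the 57 that did not, which are mostly genes with a positive value; the dashed line marks equal values.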

How the data were processed

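RNA sequencing values of 12 cell libraries (4 groups of 3) were used. The authors deposited FPKM values for 55183 genes. The submitters' processing notes name mm10, HTSeq 0.6.1p2, STAR 2.6.0c, Trim Galore 0.5.0, R 3.6 and edgeR 3.28.1. For settings, annotation and strand, the sources used here give nothing. Low values multiplied by GENCODE M21 exonic length (98.1% of gene IDs) were whole reads in 90.2% to 92.1% of cases within 0.1 read, up to 20 reads. This gave the implied depth. FPKM is no count, so no count model was run, and depth limits genes under 1 FPKM most.

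Genes with 1 FPKM or more in at least 3 libraries were tested on the log2(FPKM + 1) scale by limma (version 3.58.1, R version 4.3.3, with group means, mean trend, two-sided, no fold minimum), with and without CT-179 replicate 2 at 144 h. Replicates are those of the labels, which do not say whether they were separate cultures, and the p-values then reflect the spread among libraries alone, which may be technical. P-values were adjusted by Benjamini-Hochberg over all 12510 genes, with a threshold of 0.05. A fold change on this scale understates the change of low genes.

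Named genes were the 12 largest positive and 12 largest negative differences and the 4 smallest p-values in each pattern of effects. These came from called genes with a mean of 5 FPKM or more in a group and no provisional or small RNA name. Chosen without that floor of 5 FPKM were up to 4 called members of each list with 2 or more called. The same holds for the 5 smallest p-values with 12 libraries, and for Olig2, Olig1, Sox10, Gli1, Mki67 and Cdkn1a. Dcx, Elavl3 and Snap91, for example, had highest group means of 4.72, 3.79 and 4.52 FPKM. Other list members were named after their values were seen. The genes, lists and the library left out were chosen with earlier results of these data known. The 43 lists were described by counts and medians, with no test. Scripts were tested on simulated data. Alternatives were the pseudocount, the low-value filter, TPM and median-of-ratios scaling, a length correction, array weights, the variance model, the replicate block and each library left out.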

Additional observations from a re-analysis of the deposited data

Results flagged for a closer look

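For 78 of the genes named by the rule, the difference between the CT-179 effects at 144 h and 24 h passed its own test (limma without CT-179 replicate 2 at 144 h, adjusted over 12510 genes). With 12 libraries 0 of the 78 passed. The values that follow are those differences, effect at 144 h minus effect at 24 h, on the log2(FPKM + 1) scale.

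In the first group the drug effect passed at 144 h alone. The genes that rose then had differences of A2m 0.83, Igfbp2 0.71, Junb 0.46, Cebpd 0.45, Cp 0.41, Dusp6 0.37, Vim 0.36, Anxa4 0.30, Etv5 0.30, Gas1 0.26, Spred2 0.23, Anxa6 0.23, Timp2 0.22 and Erbb2 0.17. Those that fell then had Miat -1.44, Gpr17 -0.90, Dcx -0.73, Flt3l -0.73, Tnr -0.68, Slc1a1 -0.64, Mybpc1 -0.63, Lpl -0.52, P4ha2 -0.50, Vxn -0.48, Tub -0.47, Cntn1 -0.47, Sema4a -0.46, Gap43 -0.46, S100b -0.43, Snap91 -0.42, Gja1 -0.40, Oprl1 -0.39, Elavl3 -0.37, Kcnj16 -0.37, Lims2 -0.34, Foxm1 -0.31, Acsl6 -0.31, Sparcl1 -0.26, Irs2 -0.25, Snrnp70 -0.23 and Birc5 -0.21.

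In the second group the drug effect passed at 24 h alone. Genes that fell early had differences of Fbn2 0.60, Fn1 0.46, Nes 0.34, Igf1r 0.19 and Kcnd3 0.18. Genes that rose early had Thrsp -0.47, Mvd -0.35, Fxyd6 -0.34, Msmo1 -0.34, Hmgcs1 -0.31 and Acss2 -0.21.

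In the third group the effect passed at both times in opposite directions. Genes that fell early and rose late had differences of Lcn2 1.16, Lama4 0.66, Lgr5 0.55, Shc3 0.50, Egr1 0.45, Scarf2 0.44, Ccnd2 0.38, Nrp1 0.36, Lamb1 0.33, Notch4 0.31, Nrp2 0.30 and Spry2 0.28. Genes that rose early and fell late had Scd1 -0.31, Lss -0.29 and Fads1 -0.24.

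In the fourth group the effect passed at both times in the same direction. Fzd9 rose at both times and by more at 144 h (Fzd9 0.28). Genes that fell at both times and by less at 144 h had differences of Hspg2 0.50, Myh9 0.27 and Notch1 0.23. Genes that fell at both times and by more at 144 h had Gria2 -0.54, Gli1 -0.48, Arglu1 -0.45, Pnisr -0.40, Akap8 -0.31, Rbm39 -0.26 and Srrm1 -0.26.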

How the results depend on the processing

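Without CT-179 replicate 2 at 144 h the 329 called genes became 216 with no filter on low values and 143 with the replicate block, and 70 to 439 with each library left out in turn (70 without CT-179 replicate 3 at 144 h, which leaves 1 treated library assumed to vary like the other groups, and 439 without vehicle replicate 3 at 24 h). The other 9 alternatives gave 223 to 353 (a filter over the 11 libraries, chosen after seeing the data, is 1 of them). The 78 named genes kept their direction in each of these settings in which they were tested, and 34 kept their call in all of them. By the replicate numbers 4 of 18 same-number correlations exceeded 0.1. Of these 4, 3 are the pairs of CT-179 libraries of 24 h and 144 h (0.11, 0.24 and 0.14). The correlations were taken over all 12 libraries, so the library that stood apart enters the mean of its group. The pair at 0.24 holds that library and is not in the 11-library fit. They cannot decide whether the block applies there, and whether treated libraries of 1 number are linked was not tested further. With the block 135 of its 143 genes were among the 329, and 21 of the 78 named genes lost their call. Its counts were 2 in place of 6 for the cholesterol list, 5 in place of 10 for the splicing list, 2 in place of 5 for the fatty acid and pan-neuronal lists, 8 in place of 12 for the matrix list, 1 in place of 3 for the IGF list, 0 in place of 3 for the galectin, S100 and annexin list, 1 in place of 2 for the Notch, immediate early and G2/M lists and 0 in place of 2 for the receptor kinases and the channels.

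With all 12 libraries the count of 0 became 28 with no filter, 1 with a filter of 5 FPKM, 1 with TPM scaling, 8 with the length correction and 1231 with array weights, which give the library that stood apart less weight. It was 0 to 329 with each library left out, with 329 without that library and 3 without CT-179 replicate 1 of the same group. There, the median over all genes was -0.16 after TPM scaling. Differences that changed sign with 12 libraries were those of Cp (-0.04), Igf1r (-0.03), Birc5 (0.04), Shc3 (-0.12), Myh9 (-0.11), Nrp2 (-0.13), Fn1 (-0.10), Notch1 (-0.22), Hspg2 (-0.02), Mki67 (-0.17), Olig2 (-0.06), Kcnd3 (-0.27) and Spred2 (-0.13). The value for Olig2 ranged from 0.00 to 0.05 with each library left out and was below 0 without vehicle replicate 1 at 24 h before rounding to 0. The cause was not tested.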

Other observations

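Some genes outside the programmes above also had an effect that depended on time. Fzd9, a WNT receptor gene, rose at both times and further at 144 h. It stood at 89.0, 92.8 and 86.1 FPKM in vehicle and 93.0, 99.2 and 97.9 in CT-179 at 24 h, and at 57.9, 61.3 and 59.1 against 77.8, 88.6 and 79.2 at 144 h, with no overlap at either time and a difference of 0.28 (limma adjusted p = 0.024; 0.34 with 12 libraries). Fxyd6, a regulator of the sodium pump, rose at 24 h, from 4.60, 4.53 and 4.50 to 5.50, 5.72 and 5.68 FPKM, and did not pass at 144 h, at 14.9, 15.0 and 15.0 against 14.0, 23.8 and 14.2. Its groups were apart at 24 h, and the difference was -0.34 (limma adjusted p = 0.004; -0.10 with 12 libraries). Myh9, a nonmuscle myosin heavy chain gene, fell by 0.37 at 24 h and by 0.10 at 144 h on the log2 scale. The library that stood apart had 8.6 FPKM of Myh9, against 20.6 and 20.5 in the other treated libraries of 144 h. With 12 libraries the effect at 144 h was -0.48 and the difference between times -0.11, in place of 0.27. The annexin genes Anxa4 and Anxa6, which encode calcium-dependent membrane-binding proteins, rose at 144 h alone, with differences of 0.30 and 0.23, and neither kept its call without CT-179 replicate 3 at 144 h.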
